A study of Rattus norvegicus with 4 samples.

Results

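The genes described here encode the proteins of the mitochondrial ribosome. Members were all genes whose single annotation symbol on the array is Mrpl or Mrps followed by a digit, and each was represented by the probe set whose mean over all 4 arrays was highest. This gave 73 genes of 14217 with 1 symbol. By symbol, 46 belong to the large subunit (Mrpl) and 27 to the small subunit (Mrps). All 73 lay above the detection floor on all 4 arrays, with log2 values from 7.65 to 12.70. The floor is the 50th percentile of all values, a log2 value of 4.51.

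Mitochondrial ribosomes translate the few proteins encoded by mitochondrial DNA, all of which are parts of the respiratory chain and ATP synthase. Their ribosomal RNA comes from the mitochondrial genome, whereas every one of their proteins is encoded in the nucleus, made in the cytosol and imported. The large subunit joins amino acids and holds the exit tunnel for the new chain, and the small subunit reads the messenger RNA. In the kidney the proximal tubule is especially rich in mitochondria.

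The samples were left kidneys of male Wistar rats weighing 300 to 480 g, in a model of organ donation after cardiac death. All kidneys had 29 min of primary warm ischaemia and 3 h of cold machine perfusion with University of Wisconsin solution. The cold group ended there. The warm group then had warm perfusion for 30 min with modified Krebs-Henseleit buffer, oxygenated. The heparin and PPS groups were treated like the warm group, with low molecular weight heparin or PPS at 10 IU/ml in both the cold and the warm perfusate; the labels give PPS only by its abbreviation. Each group was 1 Affymetrix array, hybridised with an equimolar RNA pool of 3 kidneys.

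With 1 array in each group there was no spread between replicates, and no test was run. Differences are given as log2 differences between 2 arrays, with the same measure over the 9393 genes analysed, which were those with at least 1 array above the floor. The main limit was a 2-fold difference, which is 1 on the log2 scale. Because pooled whole kidney was measured, fewer cells of a type and less RNA per cell cannot be told apart.

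Kidney markers were strong on every array. All 8 markers of the proximal tubule and all 5 of the distal tubule and thick ascending limb were above the floor. Of the markers on the array, 0 of 3 for fat cells and 0 of 2 for the adrenal gland were above it. The cold array stood apart in its poly-A controls, probe sets for a few bacterial RNAs added before labelling. All 24 of these probe sets were higher on the warm than on the cold array, with a median log2 gap of 1.25. For 18 hybridisation control probe sets the median difference was 0.44 in warm minus cold and 0.15 in heparin minus cold. It was 0.66 in PPS minus cold and -0.47 in heparin minus PPS. The 3' to 5' difference of the beta-actin probe sets, a measure of RNA quality, was 2.79 on the cold array and between 3.19 and 3.39 on the others. The part of these technical differences in the values below was not tested.

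As deposited, and not when scaled to the poly-A controls, transcripts of the mitochondrial ribosome had levels after warm perfusion close to those in cold kidneys. In warm minus cold, 0 of 73 members differed by 2-fold, beside 3.64% of all genes. Among genes with mean log2 values from 10 to 12, where 46 members lay, the share was 1.53%. Their median log2 difference was -0.07, with 47 lower and 25 higher as deposited, and all 73 were lower when scaled to the poly-A controls, with a median of -1.34. That scaling moved the median of all genes to -1.27 as well. Among all genes as deposited, the median was -0.0032, with 50.7% lower and 46% higher. At 1.5-fold, 0 of 73 members were past the limit in any of the 6 comparisons. The shares of all genes past 1.5-fold were 10.9% between cold and warm, 5.6% between warm and heparin, 5.5% between warm and PPS and 2.68% between heparin and PPS. Between cold and heparin the share was 6.65%, and between cold and PPS 6.69%.

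The members extended from -0.53 for Mrps2 to 0.57 for Mrps35, and both ends were taken by proteins of the small subunit. Mrps35, a small subunit protein with no bacterial counterpart, had log2 values of 9.60 (cold), 10.18 (warm), 9.87 (heparin) and 10.01 (PPS). It was lowest on the cold array, and its 1.49-fold warm minus cold difference fell just short of 1.5-fold. Mrps6, the counterpart of bacterial ribosomal protein S6, had 12.21, 12.70, 12.58 and 12.42 on the same arrays. Mrps15, the counterpart of bacterial S15, had 10.36, 10.69, 10.66 and 10.70. All 3 warm-perfused arrays were above the cold array for these genes, and for Mrps15 they lay within 0.04 of each other. Mrpl45, which sits at the exit of the protein tunnel and helps to anchor the ribosome to the inner membrane, had the next highest difference, 0.18.

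Small subunit genes were also at the other end. Mrps2, the counterpart of bacterial S2, had log2 values of 10.34 (cold), 9.81 (warm), 10.10 (heparin) and 10.12 (PPS). Mrps18b had 10.62, 10.17, 10.59 and 10.36, and Mrps25, which has no bacterial counterpart, had 11.58, 11.19, 11.32 and 11.15. Mrps34, which also has none, had 10.17, 9.83, 10.04 and 10.01. The cold array was highest for all 4, the warm array was lowest for Mrps2, Mrps18b and Mrps34, and the PPS array was lowest for Mrps25. The warm minus cold differences were -0.53, -0.45, -0.39 and -0.33 in that order.

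**Figure D1:**
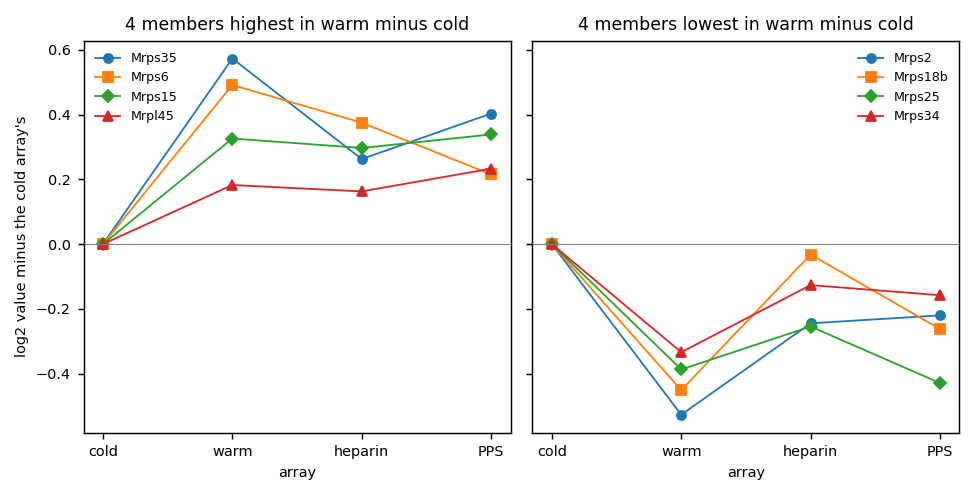
Log2 value minus that of the cold array (vertical axis) on each array (horizontal axis), for the 4 members with the highest and the 4 with the lowest warm minus cold difference; lines join the values of 1 gene. As deposited, Mrps35 reaches 0.57 and Mrps2 reaches -0.53 on the warm array, and Mrps18b is back within 0.03 of the cold array with heparin. With poly-A scaling, all 8 lie below the cold array.

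Members with smaller differences were counted at a log2 difference of 0.25, a limit chosen after the values were seen. In warm minus cold it was passed by 13 of 73 members, beside 36% of all genes. The 3 higher members, beside 18.7% of all genes, were Mrps35, Mrps6 and Mrps15. The 10 lower members, beside 17.4%, were Mrps2, Mrps18b, Mrps25, Mrps34 and Mrps17 of the small subunit and Mrpl34, Mrpl42, Mrpl50, Mrpl49 and Mrpl20 of the large subunit. Large subunit genes past this limit were thus lower in 5 of 5 cases as deposited, and small subunit genes went both ways.

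The members were also set beside genes at their level, in bands chosen after the values were seen. Of the 73 members, 46 had a mean log2 value between 10 and 12. The 2290 genes of that band had a warm minus cold median of -0.05, and 58.3% of them were lower. In either direction 30.8% passed 0.25 and 1.53% passed 2-fold. Another 23 members lay between 8 and 10, where 3420 genes had 49.2% lower, 37.4% past 0.25 and 3.25% past 2-fold. Below 8, where 1 member lay, 6.6% passed 2-fold. The 2-fold share of all genes was thus raised by genes at levels where few members lay. From 10 to 12 the 2-fold share was 0.917% in PPS minus warm and 0.131% in heparin minus PPS. Against the cold array it was 1% with either supplement.

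In warm minus cold, small subunit genes had a wider standard deviation than large subunit genes, while their medians were close. The median was -0.11 for 27 small subunit genes and -0.07 for 46 large subunit genes. The standard deviation over genes was 0.25 for the small and 0.13 for the large subunit, whereas the interquartile range was 0.22 and 0.20. The wider scatter was thus mainly in the few genes at the ends. In heparin minus PPS the order of the standard deviations turned, with 0.11 for the small and 0.13 for the large subunit. The interquartile range there was still wider for the small subunit, 0.17 beside 0.13. Averaging all probe sets of a gene turned the warm minus cold difference of the medians, large minus small, from 0.04 to -0.01.

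**Figure D2:**
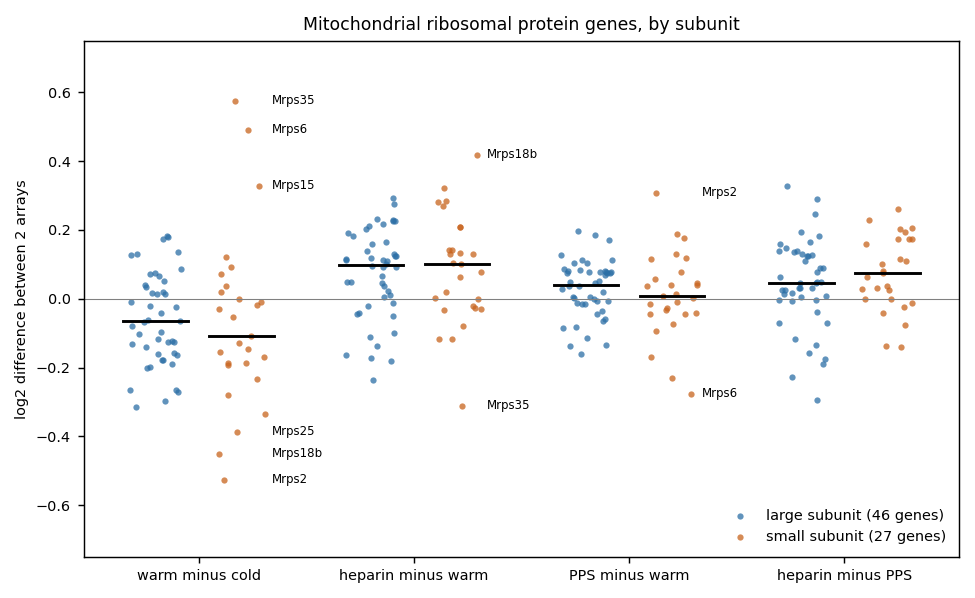
Log2 difference between 2 arrays (vertical axis) for each member, in 4 comparisons (horizontal axis); points are genes, coloured by subunit, and black bars are the subunit medians. In warm minus cold the small subunit runs from -0.53 to 0.57 and the large subunit from -0.32 to 0.18. The values are as deposited; scaling to the poly-A controls puts all members below 0 in warm minus cold.

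A few symbols do not match the place of the protein. Mrps18a and Mrps30 carry small subunit symbols, but structures of the mammalian ribosome place both in the large subunit. Mrps18a had log2 values of 10.21 (cold), 10.20 (warm), 10.17 (heparin) and 10.24 (PPS), and Mrps30 had 10.89, 10.98, 10.90 and 11.04. Neither differed by more than 0.15 between any pair of arrays. Moving both to the large subunit put the warm minus cold medians at -0.06 for 48 large subunit genes and -0.13 for 25 small subunit genes.

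Mrps18a, Mrps18b and Mrps18c are paralogues that all resemble bacterial protein S18, and they differed in their values. Mrps18b, a protein of the small subunit, had the largest heparin minus warm difference of all members, 0.42, and a PPS minus warm difference of 0.19. Mrps18c, which takes the place of bacterial S18 in the small subunit, had 10.75 (cold), 10.70 (warm), 10.97 (heparin) and 10.71 (PPS). It was highest with heparin, by 0.27 over the warm array, and its second probe set differed by 0.10 there. For Mrps18a the heparin minus warm difference was -0.03.

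Mrpl12, the counterpart of the L7/L12 stalk protein that recruits translation factors, had 12.60 (cold), 12.47 (warm), 12.61 (heparin) and 12.58 (PPS). Mrpl10, which holds the stalk, had 9.11, 9.04, 8.87 and 9.06 and was lowest with heparin. Its other probe set had 8.98, 8.79, 8.81 and 8.83 and was lowest on the warm array. At the exit of the tunnel, Mrpl17, Mrpl22, Mrpl23, Mrpl45 and Mrpl47 had warm minus cold differences between -0.13 and 0.18. Their heparin minus warm differences lay between -0.05 and 0.05, a narrower range than in warm minus cold.

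The central protuberance, a ridge of the large subunit that faces the small one, is represented by Mrpl18, Mrpl38, Mrpl40, Mrpl46 and Mrpl48. Their warm minus cold differences lay between -0.12 and 0.07. Mrpl38 had 8.91 (cold), 8.89 (warm) and 8.70 (heparin) and was highest with PPS, and its heparin minus PPS difference of -0.29 was the lowest of all members. Mrpl48 had 9.94, 10.01, 10.23 and 10.09 and was highest with heparin. Heparin thus went with a lower value of one protuberance gene and a higher value of another.

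Mrpl58, a release factor relative that frees unfinished chains from stalled ribosomes, had 10.77 (cold), 10.74 (warm), 10.77 (heparin) and 10.63 (PPS). Mrps12, a protein of the decoding centre, had 10.13, 9.98, 10.12 and 10.10. Mrps5 and Mrps24, which lie near the entry of the messenger RNA, had warm minus cold differences of 0.07 and -0.03. Among these 4 genes no pair of arrays differed by more than 0.15. Mrpl11, Mrpl24 and Mrps36 were not analysed here.

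Genes with a bacterial counterpart and genes found in mitochondria alone were compared within the members. For 44 genes with a counterpart the median warm minus cold difference was -0.11, with 32 lower and 11 higher. For 29 genes of mitochondria alone it was -0.02, with 15 lower and 14 higher. Both groups were lower in every gene when scaled to the poly-A controls. Of all genes, 50.7% were lower in warm minus cold as deposited. In PPS minus warm, 32 of 44 genes with a counterpart and 13 of 29 of mitochondria alone were higher as deposited, beside 46.9% of all genes. Over the 73 members that count went from 45 to 60 when each array was centred on the median of all genes.

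**Figure D3:**
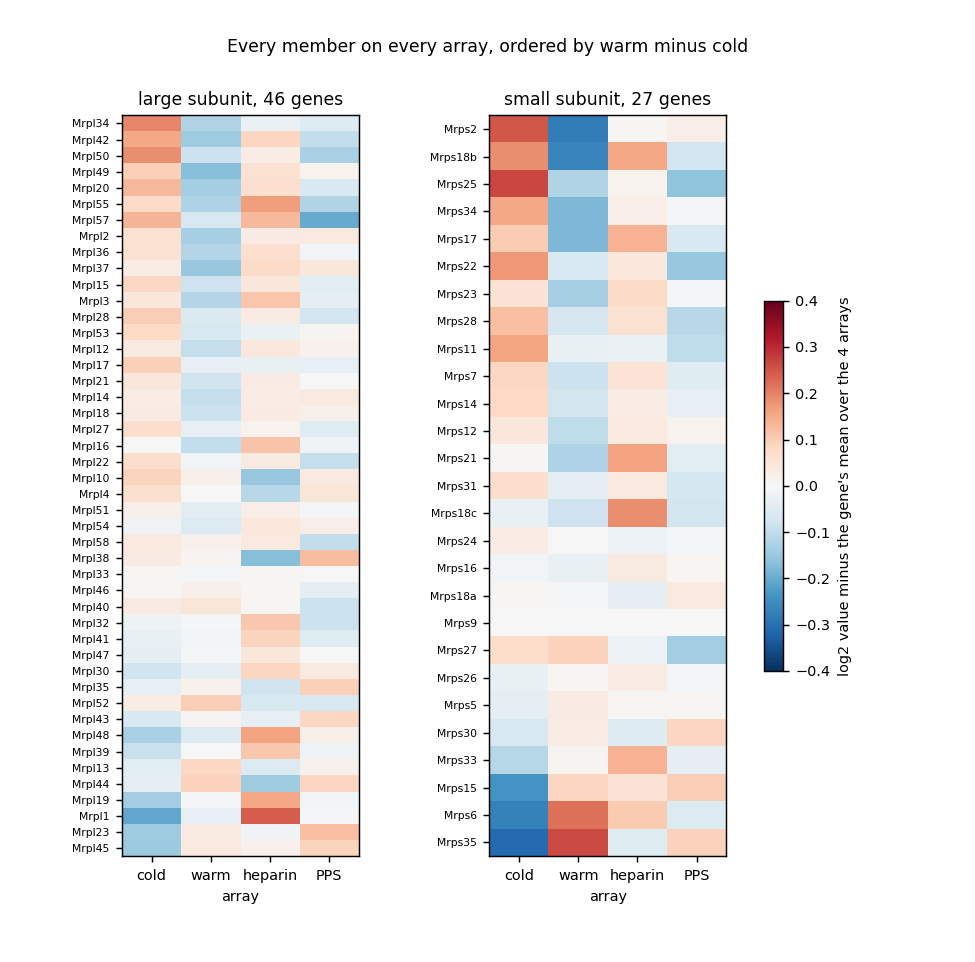
Colour gives each member's log2 value minus its own mean over the 4 arrays, with 1 row for each gene, ordered by warm minus cold, and 1 column for each array, for the large (left) and small (right) subunit. The cold and warm columns hold most of the strong colours at the top and bottom rows, and Mrpl1 stands out with heparin (9.87 against 9.42 on the cold array). Colours rest on the values as deposited.

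With heparin in the perfusates, most members had slightly higher values than on the warm array as deposited. In heparin minus warm, 0 of 73 members differed by 2-fold, beside 1.86% of all genes, and the median log2 difference was 0.10. Of the members, 52 were higher and 20 lower as deposited, and 40 were higher and 33 lower when scaled to the poly-A controls, with a median of 0.01. Among all genes 49.9% were higher and 46.3% lower as deposited, and 29.9% were higher with poly-A scaling. In the band of log2 means from 10 to 12, 56.2% of genes were higher as deposited, and in that from 8 to 10 it was 50.7%. The shares past 2-fold in these bands were 0.437% and 1.55%. The medians of the subunits were alike, 0.10 for the large and 0.10 for the small subunit.

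The 8 members past 0.25 in heparin minus warm, beside 24.8% of all genes, included 6 of the small subunit. Mrps18b (0.42), Mrps17 (0.32), Mrpl55 (0.29), Mrps21 (0.28), Mrps2 (0.28), Mrpl1 (0.27) and Mrps18c (0.27) were higher, beside 11.2% of all genes, and Mrps35 (-0.31) was lower, beside 13.7%. Mrpl1 forms the mobile arm through which spent transfer RNA leaves, and Mrpl55 is the counterpart of bacterial L31. Mrps17, the counterpart of bacterial S17, had 10.43 (cold), 10.15 (warm), 10.47 (heparin) and 10.27 (PPS). Mrpl55 had 9.24, 9.03, 9.33 and 9.04, and Mrps21, the counterpart of bacterial S21, had 11.38, 11.26, 11.54 and 11.33. In all 3 the heparin array was highest and the warm array lowest. On the lower side Mrpl44, which has an RNase III-like fold, differed by -0.24, Mrpl38 by -0.18 and Mrpl10 by -0.17. The other probe set of Mrpl10 differed by 0.02.

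As deposited, the members' median lay closer to the warm array with PPS than with heparin. Poly-A scaling turned this order, with a median of 0.01 in heparin minus warm, and centring on the median of all genes put that median at 0.11. In PPS minus warm, 0 of 73 differed by 2-fold, beside 2.23% of all genes, and 2 of 73 passed 0.25, beside 21.8%. The median log2 difference was 0.04, with 45 higher and 28 lower as deposited. Centring each array on the median of all genes gave 60 higher and 13 lower with a median of 0.08, and scaling to the poly-A controls gave 65 and 8 with a median of 0.12. Of all genes, 46.9% were higher and 49.4% lower as deposited; 61.7% were higher after centring and 66.9% after poly-A scaling.

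Mrps2 (0.31) was the member past 0.25 on the higher side, beside 9% of all genes, and Mrps6 (-0.28) on the lower side, beside 12.8%. They were also at the lower and the higher end of warm minus cold, and both comparisons share the warm array, so the values are given side by side and not as an overlap. Mrpl37 (0.20), Mrps18b (0.19) and Mrpl49 (0.18) followed on the higher side, and the other probe set of Mrpl49 had -0.14. Mrps27 (-0.23), an RNA-binding protein of the small subunit, Mrps35 (-0.17) and Mrpl52 (-0.16) followed on the lower side. The median was 0.04 for the large and 0.01 for the small subunit.

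The supplements differed little from each other. In heparin minus PPS, 0 of 73 members differed by 2-fold, beside 0.49% of all genes, and 4 passed 0.25, beside 17.9%. The direction depended on the scaling: 52 were higher and 20 lower with heparin as deposited (median 0.05), 39 and 34 after centring on the median (0.01), and 10 and 63 with poly-A scaling (-0.13). Of all genes, 51.7% were higher and 43.5% lower as deposited, 41.8% were higher after centring and 16.4% with poly-A scaling, so that the members followed all genes in this. The higher members past 0.25, beside 9.75% of all genes, were Mrpl57 (0.33), Mrpl55 (0.29) and Mrps18c (0.26), and Mrpl1 (0.25) was just short of it. Mrpl57, a large subunit protein of mitochondria alone, had 10.29 (cold), 10.09 (warm), 10.28 (heparin) and 9.95 (PPS). On the lower side Mrpl38 (-0.29) passed it, beside 8.19% of all genes, followed by Mrpl44 (-0.23), Mrpl10 (-0.19) and Mrpl35 (-0.17). For Mrpl10 the other probe set had -0.01.

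Of the 3 comparisons with the cold array, the median as deposited was nearest to 0 with heparin. In heparin minus cold the median log2 difference was -0.0002, with 33 members higher, 37 lower and 0 past 2-fold, beside 2.09% of all genes. Of all genes 47.7% were higher and 48.8% lower. At 0.25, 8 members passed, beside 29.7% of all genes, with 7 higher (15.4% of all genes) and 1 lower (14.4%). Mrpl1 (0.45), Mrps6 (0.38), Mrps15 (0.30) and Mrpl19 (0.29) were highest and Mrps25 (-0.25), Mrps2 (-0.24), Mrpl10 (-0.24) and Mrpl34 (-0.22) lowest. In PPS minus cold the median was -0.04, with 26 higher and 47 lower and 0 past 2-fold, beside 1.82% of all genes. Of all genes 45.3% were higher and 51% lower. At 0.25, 10 members passed, beside 30.4% of all genes, with 3 higher (14.6% of all genes) and 7 lower (15.7%). Mrps35 (0.40), Mrps15 (0.34), Mrpl23 (0.26) and Mrpl45 (0.23) were highest there and Mrps25 (-0.43), Mrpl57 (-0.34), Mrps22 (-0.32) and Mrpl50 (-0.32) lowest. These comparisons share the cold array, and poly-A scaling put the medians at -1.36 with heparin and -1.22 with PPS.

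The order of the arrays was counted for each member. The cold value was above all 3 warm-perfused arrays for 29 of 73 members, beside 33% of all genes, and below all 3 for 16, beside 28.9%. The warm value was below all 3 other arrays for 30 members, beside 26.1% of all genes, and above all 3 for 9, beside 25.7%. The heparin value was above all others for 25 members, beside 22.3% of all genes, and below them for 9, beside 19.9%. The PPS value was highest for 10, beside 17.5%, and lowest for 17, beside 21%. Of the members lowest on the warm array, 19 were of the large and 11 of the small subunit. Counts for arrays other than cold were added after the values were seen, and with poly-A scaling the cold array was highest for all 73.

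Over the 4 arrays the members varied less than most genes, in a comparison not matched for level. The median range, highest minus lowest log2 value, was 0.19 over members and 0.29 over all genes analysed. In warm minus cold the standard deviation of all genes was 0.61 below a mean log2 value of 8 and 0.42 from 10 to 12. The interquartile range in warm minus cold was 0.22 for the members and 0.13 for cytosolic ribosomal proteins. Mrps9 varied least, with 10.15 on every array for the probe set chosen by the rule. Its other probe set had 9.98 (cold), 9.90 (warm), 9.88 (heparin) and 9.94 (PPS). Among all genes analysed, 159 had a range under 0.01, and among the members 2 did, Mrps9 and Mrpl33.

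Further probe sets of a gene were set beside the chosen one. They share the array and the RNA pool, so their gaps do not measure error between arrays. The members had 97 probe sets, of which 24 were not the chosen one, and 12 of these, in 10 genes, were above the floor on all arrays. The median gap between the chosen and the other probe set was 0.18 between cold and warm, 0.14 between warm and heparin and 0.05 between warm and PPS, as an absolute log2 difference. The sign in warm minus cold was that of the chosen probe set for 6 of 12.

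Mrpl52, a large subunit protein of mitochondria alone, showed the widest gap. Its chosen probe set had 9.37 (cold), 9.43 (warm), 9.27 (heparin) and 9.27 (PPS). Its other probe set had 8.69, 7.56, 7.51 and 7.01, with the cold array well above the rest and a warm minus cold difference of -1.13. Mrpl51 had 4 probe sets above the floor, with warm minus cold differences of -0.06, -0.32, -0.74 and 0.22. The other probe sets of Mrps2 were under the floor, one on all 4 arrays and one on all but the cold array, and give no difference.

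Genes that overlap members in RefSeq (rat assembly GRCr8) were looked up, since probes and transcription can be shared. Of the members, 16 overlap another protein-coding gene, and 13 such genes were analysed. Slc5a3, which encodes the sodium and myo-inositol cotransporter that cells use to adapt to osmotic stress, lies within Mrps6. It had 11.49 (cold), 12.32 (warm), 11.97 (heparin) and 11.77 (PPS), in the order of arrays seen for Mrps6. Its warm minus cold difference was 0.83, beside 0.49 for Mrps6. Whether transcripts of one gene bind the other's probes was not tested. Of the 13 genes, 2 shared the order of arrays with their member, Slc5a3 and, beside Mrpl36, Ndufs6, a subunit of respiratory complex I. They were singled out after their values were seen.

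Promoters of the members were read from RefSeq (GRCr8), from 250 bases before to 50 after each gene's start, and 59 of 73 members had an entry. Short motifs of factors known for genes of mitochondrial proteins were searched on both strands: GCGCA and GCGC with any base between them for NRF1, CCGGAAG for ETS factors such as GABP, and AAGATGGCG for YY1. The windows below are those of Mrps18b, Mrps2 and Mrps6, members at the ends of the comparisons, and of Mrpl46, whose window overlaps that of Mrps11. Capitals mark motif matches, and a match is no evidence of binding.
Mrps18b, chr20:2842756-2843055, plus strand: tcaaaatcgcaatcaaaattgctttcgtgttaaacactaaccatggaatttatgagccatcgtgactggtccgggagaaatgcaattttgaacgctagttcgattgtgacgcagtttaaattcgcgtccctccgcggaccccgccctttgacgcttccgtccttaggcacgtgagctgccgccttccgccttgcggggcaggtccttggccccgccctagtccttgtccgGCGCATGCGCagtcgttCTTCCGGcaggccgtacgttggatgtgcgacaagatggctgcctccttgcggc
Mrps2, chr3:32200827-32201126, plus strand: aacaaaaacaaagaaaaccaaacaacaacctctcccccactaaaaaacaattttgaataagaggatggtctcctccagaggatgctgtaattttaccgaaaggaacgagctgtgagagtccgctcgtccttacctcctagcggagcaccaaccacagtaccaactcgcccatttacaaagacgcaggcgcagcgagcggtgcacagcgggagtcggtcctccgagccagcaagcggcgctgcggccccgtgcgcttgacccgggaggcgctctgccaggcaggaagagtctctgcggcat
Mrps6, chr11:44778417-44778716, plus strand: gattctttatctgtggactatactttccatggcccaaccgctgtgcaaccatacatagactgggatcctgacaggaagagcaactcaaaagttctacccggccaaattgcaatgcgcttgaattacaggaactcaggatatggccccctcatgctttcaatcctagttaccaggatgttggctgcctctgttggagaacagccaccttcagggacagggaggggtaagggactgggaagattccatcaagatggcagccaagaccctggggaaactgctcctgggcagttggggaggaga
Mrpl46, chr1:142116981-142117280, minus strand: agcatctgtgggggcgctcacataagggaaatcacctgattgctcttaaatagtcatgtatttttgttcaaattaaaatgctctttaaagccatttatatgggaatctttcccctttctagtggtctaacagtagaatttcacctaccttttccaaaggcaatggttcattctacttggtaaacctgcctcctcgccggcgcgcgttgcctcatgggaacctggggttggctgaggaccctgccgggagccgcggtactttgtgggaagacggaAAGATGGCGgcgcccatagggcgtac

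The Mrps18b window holds 1 match to the NRF1 motif and 1 to the ETS motif on the opposite strand, the first before the gene's start and the second across it. Those of Mrps2 and Mrps6 hold no match, which says only that these letters are not in them. Of the 59 members, 20 had an ETS match (33.9%), 9 an NRF1 match (15.3%) and 8 a YY1 match (13.6%). Over 7874 genes analysed with a promoter entry the shares were 19.2%, 10.8% and 4.2%, and over all 27456 promoters of that length 9.22%, 4.71% and 1.93%. Of the members, 7 had matches to more than 1 motif.

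Members with and without a match were set side by side, with no test. In warm minus cold the median as deposited was 0.02 for 9 members with an NRF1 match and -0.07 for 50 without, -0.06 for 20 with an ETS match and -0.08 for 39 without, and -0.09 for 8 with a YY1 match and -0.07 for 51 without. The median heparin minus warm difference was 0.06 for 20 members with an ETS match and 0.10 for 39 without, and 0.11 for 9 with an NRF1 match and 0.09 for 50 without. For YY1 it was 0.05 with a match, where 4 of 8 members were higher, and 0.09 without, where 40 of 51 were. In PPS minus warm the medians with and without a match were -0.0015 and 0.03 for NRF1, 0.05 and 0.02 for ETS and 0.04 and 0.02 for YY1. Mrpl46 of the large subunit and Mrps11 of the small subunit start close to each other on opposite strands, and their windows share 267 bases. Mrpl46 had 8.22 (cold), 8.23 (warm), 8.22 (heparin) and 8.17 (PPS). Mrps11 had 9.61, 9.42, 9.42 and 9.35, so that the cold array was highest for Mrps11 and level with the others for Mrpl46.

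The members were then set beside other large protein complexes. In warm minus cold the median log2 difference was -0.0030 for 39 cytosolic ribosomal proteins, -0.07 for 81 oxidative phosphorylation subunits and -0.14 for 37 proteasome subunits, beside -0.07 for the members. In heparin minus warm it was -0.01, 0.02 and 0.06, beside 0.10. The standard deviation of the members was 0.19 in warm minus cold, beside 0.09 for cytosolic ribosomal proteins, 0.19 for oxidative phosphorylation subunits and 0.14 for proteasome subunits. The interquartile range was 0.22 for the members, beside 0.13, 0.14 and 0.17 for these groups in the same order. The members' median in warm minus cold was close to that of the oxidative phosphorylation subunits and lay between those of the proteasome and the cytosolic ribosome; differences between these groups of genes were not tested. With poly-A scaling all of these medians in warm minus cold were below 0.

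**Figure D4:**
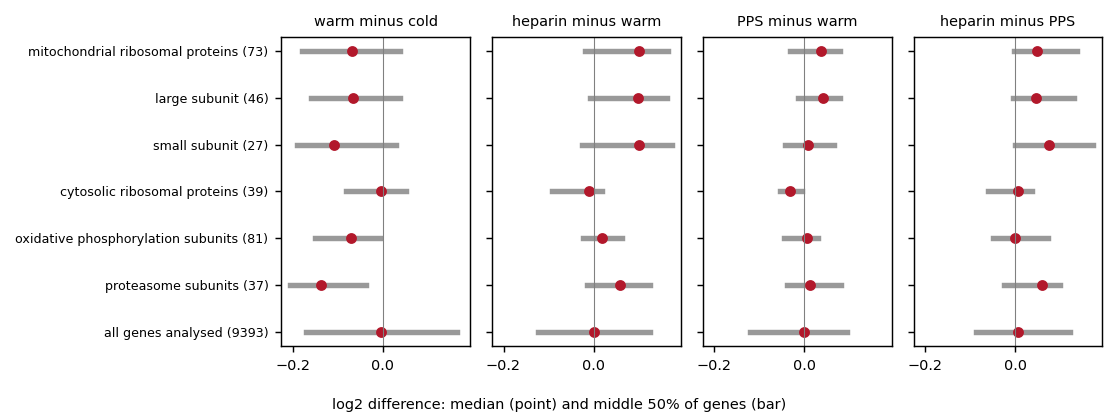
Median (point) and middle 50% (bar) of the log2 differences in 4 comparisons (panels), for the members, both subunits, 3 other groups of genes and all genes analysed, with the number of genes in brackets. In heparin minus warm the members' median of 0.10 lies right of those of cytosolic ribosomal proteins (-0.01), oxidative phosphorylation subunits (0.02) and proteasome subunits (0.06). Values are as deposited; scaling to the poly-A controls moves the median of the members to -1.34 in warm minus cold and to 0.01 in heparin minus warm.

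Other genes of mitochondrial translation were followed as lists. Of 27 symbols listed for ribosome proteins without an Mrp symbol and for assembly factors, 26 had a probe set under the symbol listed. The 24 analysed had 0 past 2-fold between cold and warm or between warm and either supplement. Their medians were -0.03 in warm minus cold, then 0.05 with heparin and 0.02 with PPS, each minus warm. Dap3, which encodes a small subunit protein, differed by 0.08 in warm minus cold, and Tfb1m, a methyltransferase of the small subunit's RNA, by -0.37. Of 12 translation factors analysed, Mtrfr, a release factor relative, differed by 1.01 in warm minus cold, and Mtrf1, another, by -1.42 in PPS minus warm, where it was close to the floor. Of 12 aminoacyl-tRNA synthetases of mitochondria, 0 passed 2-fold in these comparisons. All 5 genes of mitochondrial transcription were lower in warm minus cold as deposited, beside 50.7% of all genes, and poly-A scaling moved the median of all genes to -1.27. The median of the 5 as deposited was -0.21, and among them were Tefm (-0.34) and Tfam (-0.21), which packages mitochondrial DNA.

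Among 9 regulators of nuclear genes for mitochondria, Myc, Gabpa and Ppargc1b lay outside the members' warm minus cold range of -0.53 to 0.57. The other 6 lay within it, from -0.20 for Yy1 to 0.29 for Ppargc1a. Myc, a growth factor-responsive transcription factor, had 6.06 (cold), 7.59 (warm), 6.18 (heparin) and 6.06 (PPS), so that it was high on the warm array alone. Gabpa, the DNA-binding subunit of GABP, had 9.14, 10.06, 9.54 and 9.56. Ppargc1b, a coactivator of mitochondrial genes, had 7.07, 7.74, 8.09 and 8.08. Of 9 regulators, 1 passed 2-fold in warm minus cold and 1 in each supplement's comparison with warm, in each case Myc. Against the cold array as deposited, Ppargc1b passed it with heparin (1.02) and with PPS (1.01). Beside these counts, 3.64% of all genes passed 2-fold between cold and warm, 1.86% between warm and heparin and 2.23% between warm and PPS. Between cold and heparin the 2-fold share was 2.09%, and between cold and PPS 1.82%.

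Cell type markers differed between the arrays as well. Of 8 proximal tubule markers, 7 were lower in warm minus cold as deposited, with a median of -0.27, and the summed level of the 8 was 16.63 (cold), 16.41 (warm), 16.39 (heparin) and 16.54 (PPS) on the log2 scale. All 6 fibroblast, pericyte and smooth muscle markers were lower, with summed levels of 12.22, 11.10, 11.31 and 11.85. Distal markers were higher as deposited in 5 of 5 cases, with a median of 0.51, and collecting duct markers in 5 of 5, with a median of 0.68. Summed levels of podocyte markers were 10.94, 11.68, 11.31 and 11.60, of endothelial markers 12.67, 13.02, 12.79 and 12.64, and of leukocyte markers 9.15, 9.36, 8.93 and 9.09, with the warm array highest in each. The part of the makeup of the kidney tissue in the members' values was not tested.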

How the data were processed

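RNA of 4 groups was measured on 1 Affymetrix rat array each, with 3 kidneys pooled and 6 ug of total RNA labelled, per the labels' protocols. The deposited values are log2 expression per probe set, made by the authors with GCRMA, per the submitters' processing notes. For GCRMA the version is not given in the sources. Values between 2.11 and 16.38 fit a log2 scale. GCRMA makes the arrays' distributions alike, so that a change in total messenger RNA would not be seen, and sets probe sets with little signal to values of the background model.

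Of 31099 probe sets, 57 controls were left out and 20826 had 1 symbol. The probe set with the highest mean stood for a gene. Values under the 50th percentile, 4.51, were raised to it, and the 9393 genes above it on at least 1 array were analysed. All 97 probe sets of the members were found in RefSeq by Entrez identifier, with unchanged symbols. Gene differences, medians and counts were computed in Python 3.11.15 with numpy 2.4.6 and pandas 2.3.3. Only the 2-fold count was tried on simulated data, with large added changes, which says nothing about differences as small as the members'. The number of arrays limits the precision. Cytosolic ribosomal proteins left out Rps6k kinases, pseudogenes and -like genes.

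The members, lists and limits were chosen with earlier results of these data known. After the values were seen, the 0.25 limit, the level bands, the overlapping genes and the further probe sets were added. The alternatives were other floors, probe set rules, scalings, limits, symbols and subunit assignments. Named genes are the 4 highest and 4 lowest members of each comparison, any past 2-fold, and those of fixed functional sites.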

Additional observations from a re-analysis of the deposited data

Results flagged for a closer look

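A probe set of Mrpl52 that was not used for the gene held a difference past 2-fold, while the chosen probe set did not. It was above the floor on all arrays. Its log2 difference was -1.13 between warm and cold, -1.19 between heparin and cold and -1.68 between PPS and cold, with cold the higher array, where the chosen probe set had 0.07, -0.10 and -0.09. All 3 comparisons share the cold array.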

How the results depend on the processing

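Medians were counted as moved when they changed by more than 0.12, since no replicate spread exists. This limit is the standard deviation of the members in heparin minus PPS, a spread between genes and not the error of a median. It is wider than every median as deposited. A median within it can thus have come near 0 or turned its sign. In heparin minus warm the median was 0.10 as deposited and 0.01 with poly-A scaling, and counted as kept. Of 134 alternative values, 117 stayed within 0.12 or, for counts, within 1.5 times. Part of these could not change: all 73 members lay above the floor on all arrays, and updating left their symbols as they were. Scaling to the poly-A controls gave medians of -1.34, -1.36 and -1.22 for warm, heparin and PPS minus cold, with 70, 71 and 67 members lower by 2-fold, beside 79.3%, 86.3% and 76.7% of all genes, and -0.13 for heparin minus PPS; the cold array was then above all others for 73 members and below them for 0. A limit of 0.25, chosen after the values were seen, counted 13 members between cold and warm, 8 between warm and heparin, 2 between warm and PPS, 4 between heparin and PPS, 8 between cold and heparin and 10 between cold and PPS, where 2-fold and 1.5-fold counted 0. Taking warm in place of cold, also added later, gave 9 members above and 30 below the other arrays. Leaving out the floor, a floor at the 25th percentile and updated symbols returned the main medians, as they had to. Representing Mrps9 by its other probe set kept each median within the limit. No paired analysis was possible because each group is 1 array. Averaging all probe sets of a gene turned the large minus small median from 0.04 to -0.01 for warm minus cold, from 0.0052 to -0.0057 for heparin minus cold and from 0.03 to -0.0055 for PPS minus cold. Means in place of medians turned the heparin minus cold values, from 0.0052 to -0.0047 for large minus small and from -0.0002 to 0.01 for all members. The causes were not tested.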
